A study of Mus musculus with 11 samples.

Results

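The collagen gene family was examined in RNA sequenced from mouse lung, in lungs left untreated, given naphthalene, or given naphthalene and then osimertinib. Members were all genes whose symbol is Col, a number, a and a number. The deposited file held 39 such genes among its 23255 rows. Of these, 31 had a mean of at least 1 normalised CPM (reads scaled to a normalised library size) over the 11 libraries and were tested, among 16225 genes tested in all. The symbols Col2a1, Col9a1, Col9a2, Col11a1 and Col19a1 were not analysed here. The tested members fell into 8 fibrillar, 8 basement membrane, 4 type VI and 11 other collagens. The members nearest the threshold were Col11a2 and Col6a5, with means of 1.13 and 1.16, and Col6a6 just under it with 0.716.

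All mice were C57BL/6. The 3 control libraries came from untreated mice. The 3 naphthalene libraries came from mice treated with naphthalene, which is toxic to airway club cells. The 5 osimertinib libraries came from mice treated first with naphthalene and then with osimertinib, a kinase inhibitor aimed at mutant EGF receptor. No group given osimertinib alone is analysed here, so every osimertinib library also carries the naphthalene treatment. Dose, time, age and sex are not in the labels. Nor do the labels say whether replicates are separate animals, so each p-value reflects the spread among these libraries, part of which may be technical.

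Collagens are proteins of the extracellular matrix in which 3 chains wind into a triple helix. Fibrillar collagens, of which types I and III are the main ones in lung interstitium, assemble into tensile fibrils, and type V nucleates and limits those fibrils. Type IV collagen forms the sheet-like network of basement membranes under alveolar epithelium and capillaries, and type VI forms beaded filaments next to them. Fibroblasts and related mesenchymal cells make most fibrillar collagen, and its accumulation is the hallmark of lung fibrosis.

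The libraries held 5045361 to 13009975 gene reads. One gene without a name in the annotation used here (ENSMUSG00000119584) took 52.6%, 60.3% and 46.8% of the reads of naphthalene 1 to 3 and 43.9% of those of osimertinib 2, and at most 0.0337% elsewhere. Those 4 libraries also held the fewest gene reads, 5045361 to 5284292, against 8420474 to 13009975 in the other 7. Collagen genes rested on 5214 to 12909 reads in those 4 libraries and on 26985 to 63659 in the other 7. Osimertinib 3 stood apart from the rest on the first principal component of all tested genes. The 5 alveolar type 2 marker genes, which code for surfactant proteins and lamellar body proteins, summed to 10012 to 11362 normalised CPM in control, 10655 to 16598 in naphthalene and 11776 to 24482 in osimertinib, where osimertinib 3 was the highest.

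The promoters of Col3a1 and Col1a2 are shown because their chains belong to the 2 main interstitial fibrils and their values separated the groups differently. Each run is the 250 bases before the RefSeq start site on the + strand of GRCm38.p6, 5′ to 3′. Capitals mark matches to the TATA box letters TATAAA, to the box named after its letters CCAAT, and to the GC box letters GGGCGG. All were searched on both strands, as was the AP-1 motif with the letters TGANTCA, and no 2 marked matches overlap.
Col3a1 (chr1:45311288-45311537): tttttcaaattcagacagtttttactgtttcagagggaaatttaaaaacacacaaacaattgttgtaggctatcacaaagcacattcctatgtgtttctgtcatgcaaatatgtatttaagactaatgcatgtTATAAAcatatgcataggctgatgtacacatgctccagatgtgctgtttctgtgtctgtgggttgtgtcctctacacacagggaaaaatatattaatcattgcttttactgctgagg
Col1a2 (chr6:4505368-4505617): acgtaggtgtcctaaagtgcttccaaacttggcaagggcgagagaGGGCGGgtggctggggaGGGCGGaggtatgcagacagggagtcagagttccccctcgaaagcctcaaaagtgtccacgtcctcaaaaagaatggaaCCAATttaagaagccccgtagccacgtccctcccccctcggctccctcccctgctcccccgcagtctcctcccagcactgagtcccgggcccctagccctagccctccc
The Col3a1 window holds TATAAA 117 bases before the start and none of the other 3 motifs. The Col1a2 window holds CCAAT 109 bases and GGGCGG 205 and 188 bases before the start. Of all 32851 mouse RefSeq windows of this length, 12.4% hold the TATA box, 33.8% the CCAAT box, 32.7% the GC box and 6.75% the AP-1 motif. Among 28 windows of 26 tested collagens, the shares were 17.9%, 32.1%, 60.7% and 3.57%. A match describes letters, and no factor's binding was measured.

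Levels of different chains were compared per kilobase of exon. Averaged over the 11 libraries, Col4a1 came first with 78.3 normalised CPM per kb, followed by Col3a1 with 69.5, Col4a2 with 57.1, Col1a2 with 40.1, Col4a3 with 34.1, and Col1a1 and Col6a1 with 33.8 each. Each neighbouring pair in that order had overlapping ranges over the libraries, except Col6a1 and the next gene, Col4a4, at 18.2 per kb. Within every library Col6a1 lay above Col4a4 and Col4a2 above Col1a2. At the low end of the tested members Col6a5 stood at 0.124 per kb. The order changed with group. Col4a1 exceeded Col3a1 in control lungs, with 70.1 against 47.0 per kb, and in naphthalene lungs, with 69.0 against 56.3, whereas the osimertinib means were 88.8 and 91.0.

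Among the fibrillar genes, Col3a1 and Col5a2 were the ones whose osimertinib libraries all lay above every library of both other groups. Col3a1 codes for the single chain of type III collagen, the compliant fibril laid down early in repair. Its value, in normalised CPM, was 242, 269 and 273 in control 1 to 3, 326, 354 and 259 in naphthalene 1 to 3, and 495, 475, 445, 489 and 627 in osimertinib 1 to 5. All 5 osimertinib libraries lay above all 6 others. The group means were 261 ± 16.5, 313 ± 48.8 and 506 ± 70.3 (SD, n = 3, 3 and 5), so the osimertinib mean was 1.94 times the control mean and 1.62 times the naphthalene mean.

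On the log2(value + 1) scale, Col3a1 in osimertinib differed from control by 0.94 (SE 0.13, limma adjusted p = 0.111) and from naphthalene by 0.69 (SE 0.13, limma adjusted p = 0.178). These 2 comparisons share the osimertinib libraries, and neither passed the threshold of 0.05. DESeq2 on the recovered reads called Col3a1 higher in both, with adjusted p = 4.63e-07 against control and 0.0199 against naphthalene, while edgeR gave 0.160 and 0.424. Without osimertinib 3, the limma adjusted p against control was 0.0350 at a difference of 0.99, and over all single libraries left out it ranged from 0.0350 to 0.919. With naphthalene alone, the difference from control was 0.25 (SE 0.15, limma adjusted p = 0.762), within the overlap of the groups, and it was -1.31 when every library was given the same total and -0.20 when the totals were equal outside the unnamed gene. In bulk RNA, fewer cells of a type and less RNA per cell cannot be told apart.

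Col5a2 codes for a chain of type V collagen, which is built into type I fibrils and controls their diameter. Its value was 48.8, 47.7 and 55.3 in control 1 to 3, 58.4, 56.2 and 46.4 in naphthalene 1 to 3, and 72.7, 82.1, 75.6, 76.7 and 93.2 in osimertinib 1 to 5. Again every osimertinib library was above every control and naphthalene library. The means were 50.6 ± 4.13, 53.6 ± 6.41 and 80.0 ± 8.12 (SD, n = 3, 3 and 5). The difference was 0.65 (SE 0.11, limma adjusted p = 0.313) against control and 0.57 (SE 0.11, limma adjusted p = 0.178) against naphthalene. DESeq2 called it against control (adjusted p = 0.00017) and not against naphthalene (adjusted p = 0.0756).

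**Figure D1:**
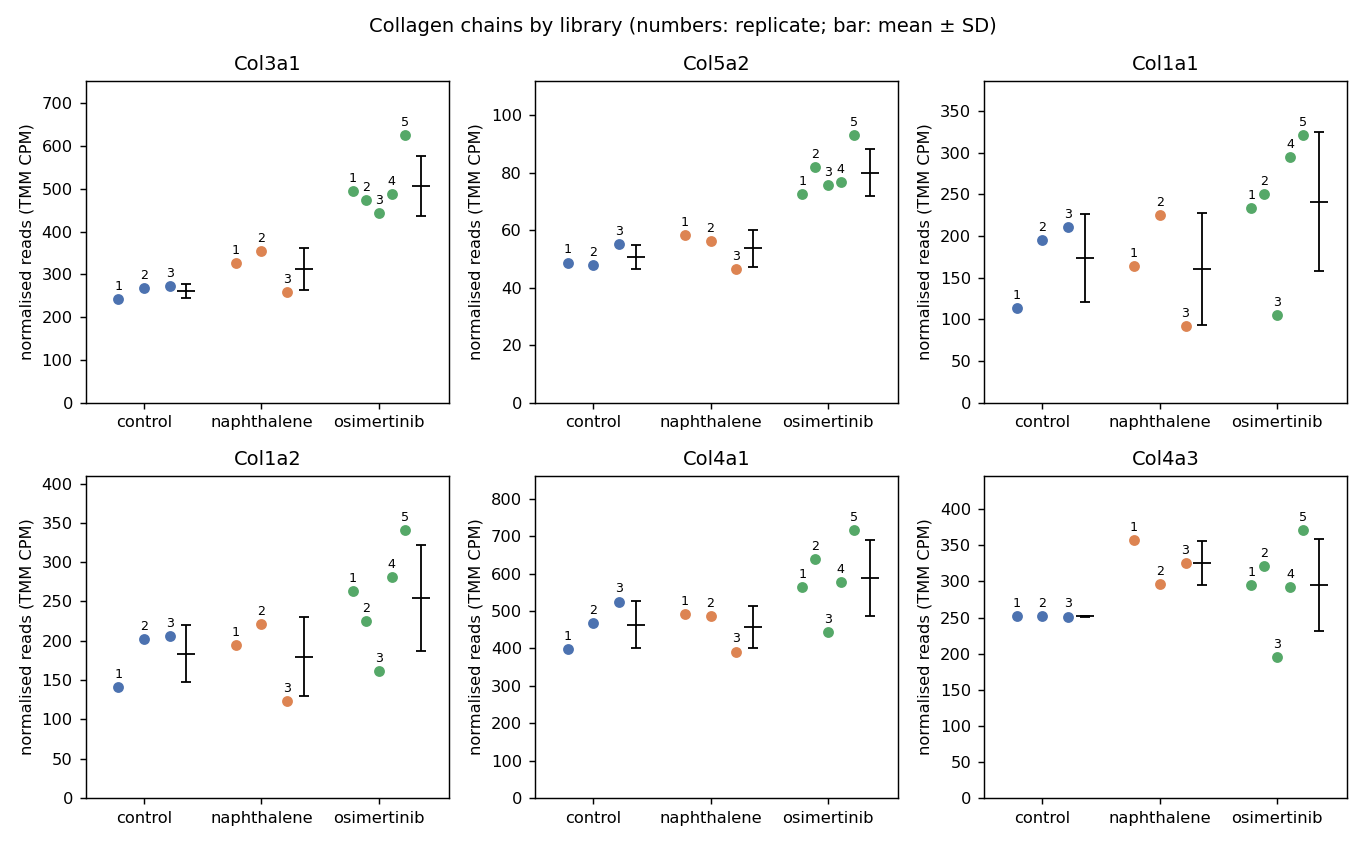
Normalised CPM (y axis) of the main collagen chains in each library, by group (x axis), with numbers giving the replicate and bars the mean ± SD. The 5 osimertinib libraries sit above all others for Col3a1 and Col5a2, while for Col1a1, Col1a2, Col4a1 and Col4a3 the osimertinib libraries overlap both other groups.

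The type I chains did not separate the groups. Type I collagen, the stiff fibril that is the most abundant protein of mature scar, is built from 2 Col1a1 chains and 1 Col1a2 chain. Col1a1 was at 114, 195 and 211 in control 1 to 3, 164, 225 and 92.2 in naphthalene 1 to 3, and 233, 250.4, 105, 295 and 322 in osimertinib 1 to 5. The osimertinib libraries spanned nearly the whole range of the data, since osimertinib 3 was lower than every control and the other 4 were above all control and naphthalene libraries. Col1a2 was at 141, 203 and 206 in control 1 to 3, 194, 221 and 123 in naphthalene 1 to 3, and 264, 224, 161, 281 and 341 in osimertinib 1 to 5. Again osimertinib 3 was the exception, and the other 4 osimertinib libraries were above all 6 others. Against naphthalene the differences were 0.58 (SE 0.37, limma adjusted p = 0.628) for Col1a1 and 0.50 (SE 0.24, limma adjusted p = 0.511) for Col1a2. Relative to each other the 2 chains varied from 0.654 to 1.12 in Col1a1/Col1a2, or 0.590 to 1.01 per kb.

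The remaining fibrillar chains overlapped between osimertinib and the other groups. Col5a1, the partner of Col5a2 in type V, was at 36.4, 47.3 and 50.2 in control 1 to 3, 40.7, 53.0 and 31.2 in naphthalene 1 to 3, and 59.5, 46.6, 29.0, 52.5 and 62.8 in osimertinib 1 to 5. Osimertinib 3 was the lowest of all 11 libraries. Col27a1, a fibrillar chain of cartilage and other connective tissue, was at 10.6, 11.9 and 14.2 in control 1 to 3, 9.47, 10.3 and 10.1 in naphthalene 1 to 3, and 17.4, 10.3, 9.18, 11.5 and 12.5 in osimertinib 1 to 5. All 3 naphthalene libraries were below all 3 controls, with a difference of -0.26 (SE 0.20, limma adjusted p = 0.841).

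Col5a3, the third type V chain, was at 3.35, 3.99 and 3.01 in control 1 to 3, 2.53, 3.96 and 3.21 in naphthalene 1 to 3, and 3.28, 2.91, 2.85, 4.59 and 5.33 in osimertinib 1 to 5. Col11a2, a chain of the cartilage fibril, was at 0.795, 1.64 and 1.14 in control 1 to 3, 0.631, 1.19 and 1.38 in naphthalene 1 to 3, and 1.91, 0.794, 0.802, 1.13 and 0.999 in osimertinib 1 to 5. Both were near the bottom of the measured range, where 1 read is worth 0.0568 to 0.459 normalised CPM, and their groups overlapped in all 3 comparisons. Col24a1, also fibrillar, had a mean of 0.417 and was not tested.

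Over the 8 tested fibrillar genes, osimertinib against naphthalene had a median log2 difference of 0.37, with 8 above 0, beside 0.06 over all genes tested, of which 60.5% were above 0. Osimertinib against control had a median of 0.28 with 6 above 0, beside -0.01 over all genes, of which 48% were above 0. Naphthalene against control had a median of -0.08 with 2 above 0, beside -0.06 over all genes, of which 38% were above 0.

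Basement membrane collagens were the most abundant class. Col4a1 and Col4a2 code for the chains of the type IV network found in nearly all basement membranes, and start 21 bases apart on opposite strands of their chromosome. Col4a1 was at 398, 468 and 525 in control 1 to 3, 492, 486 and 391 in naphthalene 1 to 3, and 564, 638, 443, 577 and 717 in osimertinib 1 to 5. The 4 osimertinib libraries other than osimertinib 3 were above all controls and all naphthalene libraries. Col4a2 was at 275, 356 and 393 in control 1 to 3, 355, 373 and 280.4 in naphthalene 1 to 3, and 390.4, 456, 249.6, 397 and 527 in osimertinib 1 to 5. Here osimertinib 3 was the lowest of the 11 libraries and osimertinib 1 fell within the control range. The Col4a1 difference from naphthalene was 0.35 (SE 0.16, limma adjusted p = 0.478). The Col4a2 difference was 0.23 (SE 0.21, limma adjusted p = 0.755).

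Col4a3, Col4a4 and Col4a5 together build the network of the alveolar and glomerular basement membranes. Col4a3 was at 253, 252 and 251 in control 1 to 3, 357, 296 and 325 in naphthalene 1 to 3, and 296, 321, 196, 293 and 371 in osimertinib 1 to 5. The 3 controls agreed within 2 normalised CPM, and each naphthalene library was higher than each control, a difference of 0.36 (SE 0.19, limma adjusted p = 0.715) that became -1.19 with equal library totals and -0.09 with equal totals outside the unnamed gene. The 5 osimertinib libraries ran from below the controls to above all other libraries. Osimertinib differed from naphthalene by -0.17 (SE 0.17, limma adjusted p = 0.774) for Col4a3, which became 1.02 and 0.08 under the same rescalings.

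Col4a4 was at 182, 152 and 176 in control 1 to 3, 193, 173 and 202 in naphthalene 1 to 3, and 190.1, 193, 144, 181 and 234 in osimertinib 1 to 5. Its groups overlapped in all 3 comparisons. Col4a5, which is X-linked and pairs with Col4a3 and Col4a4, was at 88.8, 78.2 and 90.2 in control 1 to 3, 92.8, 77.1 and 102 in naphthalene 1 to 3, and 119, 104, 93.4, 104 and 137 in osimertinib 1 to 5. All 5 osimertinib libraries were above all 3 controls, with a mean 1.30 times theirs, and the difference of 0.37 (SE 0.13, limma adjusted p = 0.775) became -0.0041 with equal library totals. Naphthalene 3 lay above osimertinib 3, so osimertinib and naphthalene overlapped.

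Col4a6, a chain of the basement membrane around smooth muscle, was at 18.0, 17.7 and 18.3 in control 1 to 3, 11.7, 20.2 and 12.8 in naphthalene 1 to 3, and 18.8, 14.3, 8.73, 17.0 and 18.7 in osimertinib 1 to 5. Control values lay within 1 normalised CPM of each other, and the lowest value was that of osimertinib 3. Col15a1 and Col18a1 code for the multiplexins, collagens with sugar chains that link basement membranes to the matrix beneath. Col15a1 was at 5.63, 14.0 and 8.42 in control 1 to 3, 6.31, 11.9 and 4.59 in naphthalene 1 to 3, and 10.2, 10.9, 9.09, 10.4 and 9.66 in osimertinib 1 to 5. Col18a1, whose end fragment is endostatin, was at 19.1, 30.6 and 28.5 in control 1 to 3, 18.9, 21.8 and 18.8 in naphthalene 1 to 3, and 28.5, 21.4, 15.0, 25.8 and 27.1 in osimertinib 1 to 5. Neither separated any pair of groups.

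Over the 8 basement membrane genes, the median log2 difference was 0.22 in osimertinib against naphthalene, with 6 above 0, 0.18 in osimertinib against control, with 6 above 0, and -0.02 in naphthalene against control, with 3 above 0.

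Type VI collagen filaments are built from 1 chain each of Col6a1, Col6a2 and Col6a3 or a Col6a3-like chain. Col6a1 was at 109.7, 129 and 135 in control 1 to 3, 141, 169.7 and 101 in naphthalene 1 to 3, and 164, 142, 99.97, 144 and 189 in osimertinib 1 to 5. Col6a2 was at 83.4, 105 and 108 in control 1 to 3, 94.1, 114 and 85.4 in naphthalene 1 to 3, and 108, 95.8, 53.7, 103 and 136 in osimertinib 1 to 5. Col6a3 was at 107, 126 and 140.0 in control 1 to 3, 118, 136 and 109.7 in naphthalene 1 to 3, and 159, 116, 100.3, 139 and 166 in osimertinib 1 to 5. Osimertinib 3 was the lowest of all libraries for these 3 chains and osimertinib 5 the highest, so the groups overlapped in every comparison. The fourth tested chain, Col6a5, was at 0.398, 1.90 and 0.869 in control 1 to 3, 0.316, 2.37 and 1.84 in naphthalene 1 to 3, and 1.15, 1.32, 0.713, 0.399 and 1.47 in osimertinib 1 to 5, and Col6a6 and Col6a4 were not tested, with means of 0.716 and 0.398. The class median log2 difference was 0.04 in osimertinib against naphthalene, 0.06 in osimertinib against control and 0.05 in naphthalene against control. The differences of Col6a1, Col6a2 and Col6a3 against naphthalene were 0.11 (SE 0.20), -0.03 (SE 0.23) and 0.14 (SE 0.16) on the log2 scale, and that of Col6a2 was 1.14 with equal library totals.

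The 11 other collagens included fibril-associated, transmembrane, network-forming and anchoring collagens. Col13a1, a transmembrane collagen of cell adhesion sites, was at 29.7, 30.1 and 36.0 in control 1 to 3, 23.4, 28.9 and 22.9 in naphthalene 1 to 3, and 32.1, 25.1, 21.2, 25.4 and 30.7 in osimertinib 1 to 5. Each naphthalene library lay below each control, a difference of -0.34 (SE 0.16, limma adjusted p = 0.675). Col8a2, a chain of the short-chain network of type VIII, was at 9.55, 10.6 and 11.6 in control 1 to 3, 9.16, 7.91 and 7.80 in naphthalene 1 to 3, and 9.01, 9.53, 6.15, 13.6 and 9.53 in osimertinib 1 to 5. Its naphthalene libraries also lay below the controls, a difference of -0.32 (SE 0.22, limma adjusted p = 0.809).

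The remaining 9 ranged in mean from 1.93 for Col20a1 to 62.9 for Col12a1, a fibril-associated collagen. Col23a1, Col16a1, Col8a1, Col7a1, Col17a1 and Col10a1 had means of 34.9, 17.3, 5.97, 5.09, 4.33 and 2.99 normalised CPM. Col7a1 forms the anchoring fibrils of the epidermis and airways and Col17a1 is a hemidesmosome protein. Col14a1, which binds fibril surfaces and was chosen for its values after they were seen, was at 36.5, 36.7 and 35.7 in control 1 to 3, 35.0, 34.0 and 35.8 in naphthalene 1 to 3, and 43.8, 46.9, 34.1, 53.5 and 50.8 in osimertinib 1 to 5. Its controls and naphthalene libraries lay within 3 normalised CPM of one another, and 4 of 5 osimertinib libraries lay above all 6, for a difference of 0.37 (SE 0.13, limma adjusted p = 0.341) against naphthalene. The 5 untested members of this class had means from 0.0873 for Col22a1 to 0.659 for Col26a1 and at most 15 reads in any library.

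**Figure D2:**
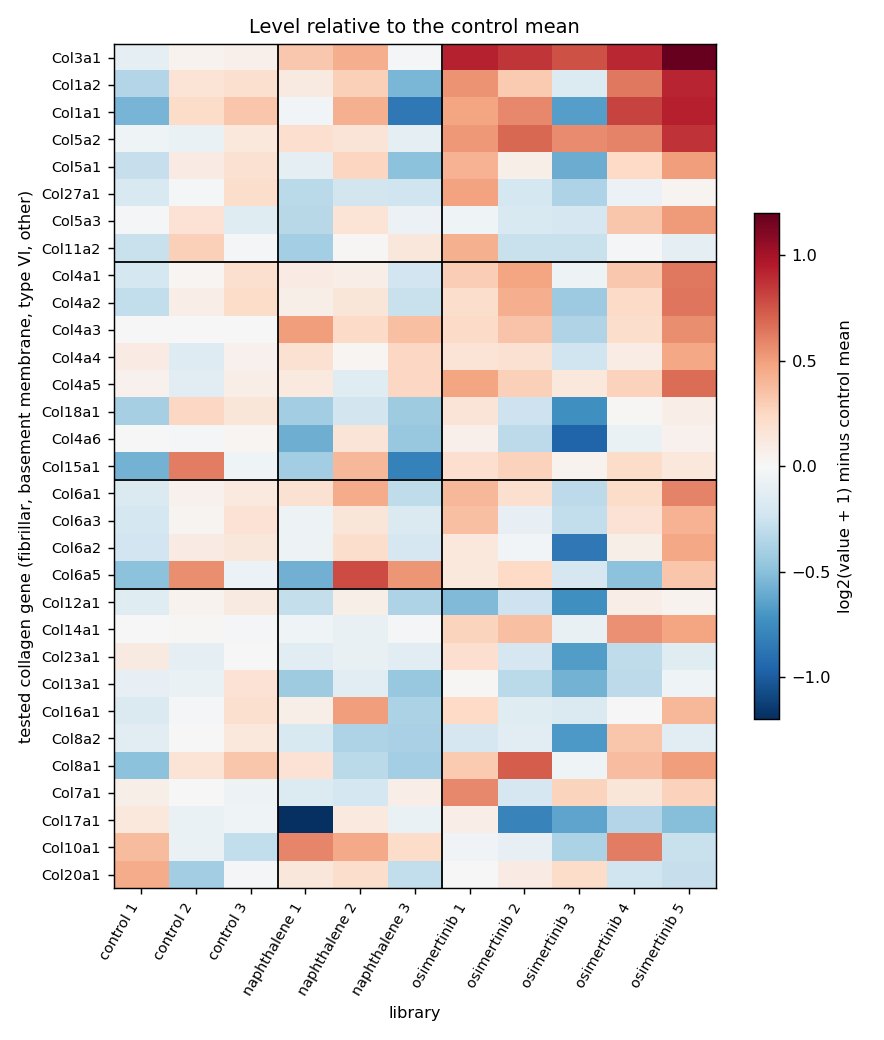
Log2 difference of each library (columns) from the control mean for the 31 tested collagens (rows, grouped by class), on the log2(value + 1) scale. Colours run from blue (lower than the control mean) to red (higher). The Col3a1 and Col5a2 rows are red in all 5 osimertinib libraries, and osimertinib 3 is the lowest of its group for 25 of the 31 genes.

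Counted over the family, no collagen passed the adjusted threshold in any of the 3 comparisons with limma. In osimertinib against naphthalene, where 0% of all genes were called by limma, 6 of 31 tested collagens had an unadjusted p under 0.05, all higher, beside 7.08% of all genes. Col3a1 and Col5a2 were the 2 of 31 whose groups did not overlap, both higher, beside 3.82% of all genes. DESeq2 called 1 collagen higher, beside 0.0709% of all genes, and edgeR 0, beside 3 collagens at an unadjusted edgeR p under 0.05, all higher, against 3.78% of all genes. The median log2 difference of the family was 0.15, beside 0.06 for all genes, and 22 of 31 were above 0, beside 60.5% of all genes. With the replicate block that median was 0.05, beside 0.06 for all genes, and 18 of 31 were above 0.

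In osimertinib against control, limma called 0 of 31, beside 0.00616% of all genes. Col3a1, Col5a2 and Col4a5 had no overlap, all higher, which is 3 of 31, beside 2.91% of all genes. At an unadjusted p under 0.05 there were 4 of 31, beside 2.31% of all genes in that direction, and none lower. DESeq2 called 2 higher, beside 0.26% of all genes, and edgeR 0, with 4 at an unadjusted edgeR p under 0.05, all higher, beside 3.27% of all genes. The median log2 difference was 0.11, beside -0.01 over all genes, with 19 above 0, and it was -0.07, beside -0.20 over all genes, when libraries were given the same total outside the unnamed gene.

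In naphthalene against control, limma called 0 collagens, beside 0% of all genes. Col4a3 was the 1 member higher without overlap, beside 4.94% of all genes, and Col13a1, Col27a1 and Col8a2 were the 3 lower without overlap, beside 11.2%. No collagen had an unadjusted limma p under 0.05, beside 7.46% of all genes, and edgeR gave 1 collagen at that level, beside 5.53%. DESeq2 called 0 of the collagens that it gave an adjusted p, beside 0.227% of all genes, and gave no adjusted p for 15 of 31. The median was -0.05 with 10 of 31 above 0, beside -0.06 over all genes, and 16 of 31 were above 0 with median-ratio rescaling.

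**Figure D3:**
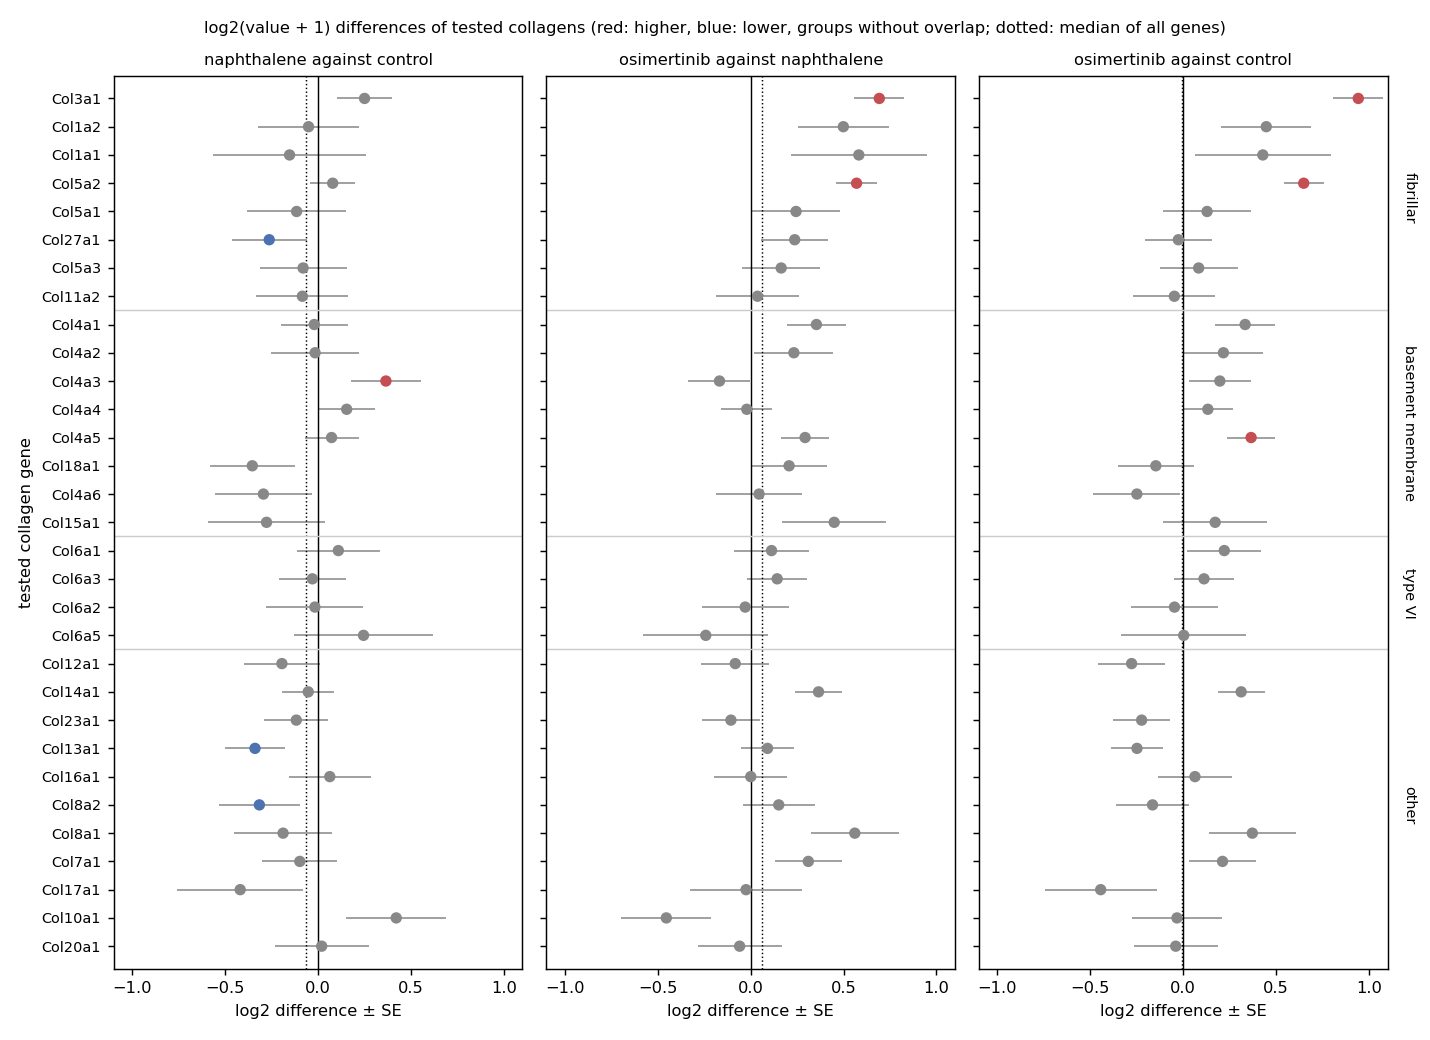
Log2 differences of the 31 tested collagens for the 3 comparisons, with bars for the standard error, red and blue points for groups without overlap (higher and lower) and a dotted line at the median of all genes. Col3a1 and Col5a2 are red in both comparisons with osimertinib, and the short bars of these 2 genes contrast with the long ones of Col1a1.

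The share of collagen expression held by each class does not depend on how libraries are scaled. The percentage of the summed collagen values held by fibrillar genes was 25.4, 28.5 and 27.8 in control 1 to 3, 27.7, 30.5 and 23.7 in naphthalene 1 to 3, and 33.5, 32.0, 34.5, 35.2 and 34.5 in osimertinib 1 to 5. All 5 osimertinib libraries were above all 6 others. The means were 27.2 ± 1.65%, 27.3 ± 3.42% and 34.0 ± 1.24% (SD, n = 3, 3 and 5). Leaving out single libraries gave differences of 4.84 to 8.24 percentage points between osimertinib and naphthalene. Without Col3a1 in either part of the ratio, the fibrillar share was 16.8, 20.7 and 20.4 in control 1 to 3, 18.5, 21.3 and 14.4 in naphthalene 1 to 3, and 22.3, 21.0, 19.6, 24.5 and 23.2 in osimertinib 1 to 5, and the groups overlapped.

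Basement membrane genes held 51.2 ± 1.30%, 52.4 ± 3.96% and 48.3 ± 1.87% of collagen in control, naphthalene and osimertinib (SD, n = 3, 3 and 5). Type VI held 13.1 ± 0.261%, 12.9 ± 0.924% and 11.3 ± 0.904%. The other collagens held 8.49 ± 0.632%, 7.39 ± 0.543% and 6.40 ± 0.477%. In these last 2 classes every osimertinib library lay below every control. For the other collagens so did every naphthalene library, at 6.84, 7.41 and 7.92% against 8.13% in the lowest control. The summed value of all collagens was 2673 ± 292, 2767 ± 334 and 3385 ± 652 normalised CPM, so the 5 osimertinib libraries ranged from 2404 to 4242 and overlapped both other groups.

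**Figure D4:**
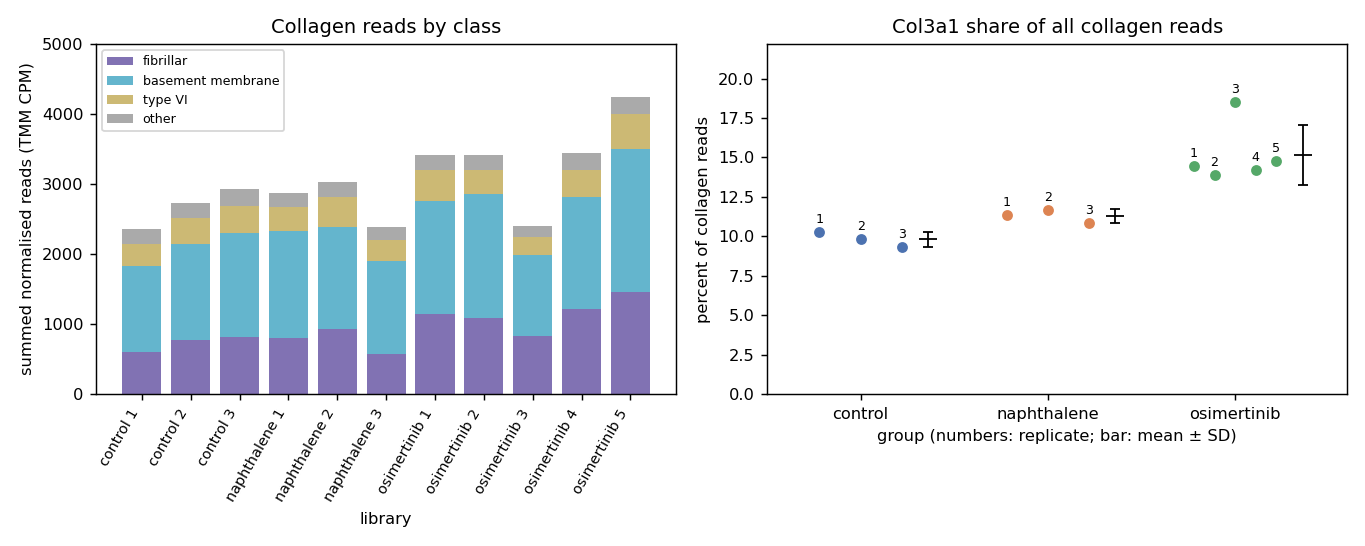
Left, summed normalised CPM of the 4 collagen classes in each library, and right, the share of Col3a1 in the collagen sum by group, with numbers giving the replicate and bars the mean ± SD. The fibrillar part is 32.0 to 35.2% of an osimertinib bar and 23.7 to 30.5% of any other, and the Col3a1 shares of the 3 groups do not overlap.

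The percentage of the summed collagen values held by Col3a1 alone was 10.3, 9.84 and 9.31 in control 1 to 3, 11.4, 11.7 and 10.8 in naphthalene 1 to 3, and 14.5, 13.9, 18.5, 14.2 and 14.8 in osimertinib 1 to 5. The 3 groups did not overlap, with means of 9.81 ± 0.490%, 11.3 ± 0.426% and 15.2 ± 1.89% (SD, n = 3, 3 and 5), so the naphthalene lungs lay between the other groups. The ratio of Col3a1 to Col4a1 sets a fibril chain against a basement membrane chain. It was 0.519 to 0.610 in control, 0.662 to 0.730 in naphthalene and 0.745 to 1.00 in osimertinib, without overlap. Its means there were 0.568 ± 0.0455, 0.685 ± 0.0387 and 0.870 ± 0.0927 (SD, n = 3, 3 and 5). The Col3a1 share and this ratio reuse the Col3a1 values given above, so neither is a separate observation. The chain pairs were not fixed in advance and several hold Col3a1 or Col5a2. Overlap was not counted over other pairs or shares, so these ratios have no background. The ratio of type III to type I chains did not separate all 3 groups. Col3a1/Col1a2 was 1.71, 1.33 and 1.32 in control 1 to 3, 1.68, 1.61 and 2.10 in naphthalene 1 to 3, and 1.88, 2.12, 2.76, 1.74 and 1.84 in osimertinib 1 to 5. Its means were 1.46 ± 0.224, 1.79 ± 0.267 and 2.07 ± 0.412. Every osimertinib library lay above every control for this ratio, while naphthalene overlapped both other groups.

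For Col5a2/Col4a1 the lowest osimertinib ratio, 0.129, was above the highest of the other 6 libraries, 0.123. Col5a2/Col5a1, the ratio of the 2 type V chains, had means of 1.15 ± 0.171, 1.33 ± 0.232 and 1.71 ± 0.539 and overlapped. In the opposite sense, Col4a3/Col4a1 was 0.609 to 0.830 in naphthalene, above its range of 0.442 to 0.524 in osimertinib, with 0.479 to 0.636 in control. Within type IV, Col4a1/Col4a2 ran from 1.30 to 1.77, the top value being that of osimertinib 3, and Col4a3/Col4a4 from 1.36 to 1.85. Within type VI, Col6a3/Col6a1 ran from 0.804 to 1.09. Col6a2/Col6a1 was 0.761 to 0.813 in control, 0.668 to 0.849 in naphthalene and 0.537 to 0.719 in osimertinib. Each osimertinib library thus lay below each control for Col6a2/Col6a1, and naphthalene overlapped both.

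**Figure D5:**
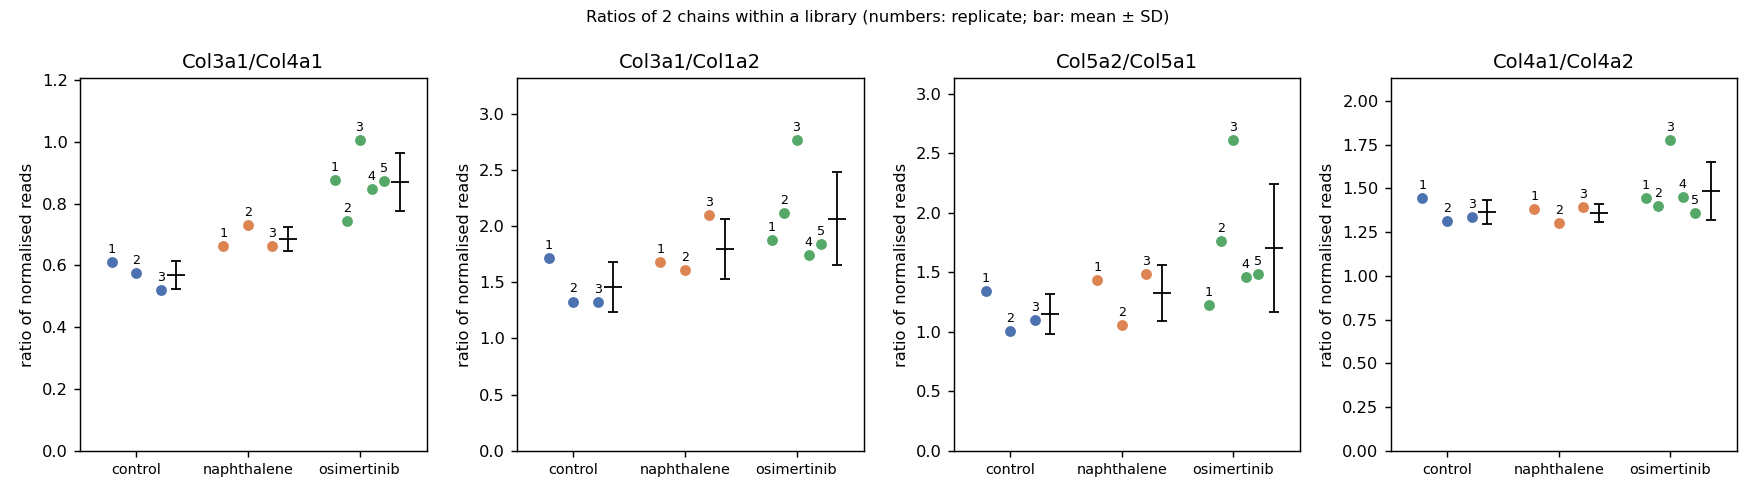
Ratios of 2 chains within a library (y axis), by group (x axis), with numbers giving the replicate and bars the mean ± SD. Col3a1/Col4a1 has no overlap between the 3 groups (0.519 to 0.610, 0.662 to 0.730 and 0.745 to 1.00), and osimertinib 3 is the highest library in all 4 panels.

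Libraries differed across the family. Osimertinib 3 was the lowest of its group for 25 of 31 collagens, and for 20 of the 21 with a mean of at least 10. Col3a1, Col5a2 and Col4a5 lay above all controls in that library too. Naphthalene 3 was the lowest of its group for 20 of 31 and control 1 for 19 of 31, while osimertinib 5 was the highest for 16 of 31. The median coefficient of variation over the 31 genes was 13.4%, 15.6% and 23.1% in control, naphthalene and osimertinib, whereas in osimertinib it was 10.1% for Col5a2, 13.9% for Col3a1 and 34.7% for Col1a1. Osimertinib 2 shares the high read share of the unnamed gene with the naphthalene libraries. It lay above all 3 of them for 11 of 31 collagens and below all 3 for 2. The 11 included Col3a1, Col5a2, Col1a1, Col1a2, Col4a1, Col4a2 and Col4a5. The same was not counted over all genes, so these counts have no background and are not read as a result about collagens. With both osimertinib 2 and 3 left out, Col3a1 against naphthalene had a difference of 0.78 (limma adjusted p = 0.0474).

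Collagen chains need enzymes that hydroxylate, fold, trim and crosslink them, and 29 of 31 listed genes of this kind were tested. Their median log2 difference was 0.10 in osimertinib against naphthalene, with 23 of 29 above 0 beside 60.5% of all genes, 0.06 in osimertinib against control and -0.07 in naphthalene against control. In osimertinib against naphthalene limma, edgeR and DESeq2 called 0 of them, while 5 of 29 had an unadjusted limma p under 0.05, all higher, beside 7.08% of all genes, and 3 of 29 were higher without overlap, beside 3.82%. Lox, lysyl oxidase, which crosslinks fibrils, was at 34.2, 35.6 and 39.4 in control 1 to 3, 51.8, 38.0 and 40.8 in naphthalene 1 to 3, and 58.3, 99.5, 61.9, 52.0 and 67.4 in osimertinib 1 to 5. Every osimertinib library was above all 6 others. The difference was 0.60 (SE 0.18, limma adjusted p = 0.275) against naphthalene and 0.85 (SE 0.18, limma adjusted p = 0.317) against control, where DESeq2 called it higher (adjusted p = 0.0113).

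Adamts2, which cuts the N-terminal propeptide of fibrillar procollagens, was at 17.8, 24.2 and 26.1 in control 1 to 3, 30.9, 24.9 and 21.1 in naphthalene 1 to 3, and 38.0, 32.8, 32.6, 36.5 and 41.7 in osimertinib 1 to 5. It too did not overlap between osimertinib and either other group, with a difference of 0.50 (SE 0.15, limma adjusted p = 0.288) against naphthalene and a DESeq2 adjusted p of 0.0154 against control. Adamts14, at a low mean of 2.86, went the other way, with group means of 3.98 ± 0.323, 2.73 ± 0.748 and 2.26 ± 1.02 (SD, n = 3, 3 and 5). Its highest osimertinib library, 3.46, and highest naphthalene library, 3.47, lay below its lowest control, 3.61. It was the 1 of 29 lower without overlap in osimertinib against control, beside 3.43% of all genes, and 2 were higher, beside 2.91%. Osimertinib and naphthalene overlapped for Adamts14. Plod1, a lysyl hydroxylase, had means of 22.7 ± 1.14, 20.3 ± 1.67 and 26.4 ± 3.69 (SD, n = 3, 3 and 5) and was above all naphthalene libraries in each osimertinib library. Serpinh1, the collagen chaperone HSP47, had means of 151 ± 15.3, 124 ± 18.4 and 157 ± 39.6. P4ha1, a prolyl hydroxylase, had 49.1 ± 6.01, 43.8 ± 1.99 and 52.3 ± 13.2. Plod2, another lysyl hydroxylase, had 44.6 ± 1.59, 44.4 ± 8.95 and 49.4 ± 7.76. The groups of these last 3 overlapped between osimertinib and naphthalene. The C-propeptide protease Bmp1 and its enhancer Pcolce had osimertinib means of 40.0 ± 7.46 and 46.2 ± 6.67 against naphthalene means of 38.0 ± 8.88 and 41.1 ± 5.27.

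Marker lists of mesenchymal cells, the main makers of fibrillar collagen, were read beside these values. All 11 fibroblast markers were tested, and their summed value was 2056 to 2275 in control, 1948 to 2837 in naphthalene and 2120.1 to 2880.2 normalised CPM in osimertinib. In osimertinib against naphthalene 9 of 11 were above 0, beside 60.5% of all genes, with a median log2 difference of 0.16. Limma called 0 of them, with 2 higher at an unadjusted p under 0.05, beside 7.08% of all genes, and edgeR and DESeq2 also called 0. In osimertinib against control 10 of 11 were above 0, beside 48% of all genes. Their median there was 0.17, beside -0.01 over all genes, and limma called 0. The 6 myofibroblast markers summed to 256 to 380.0, 276 to 302 and 262 to 368. Postn, with a mean of 188, was the largest part of that sum. In osimertinib against control 3 of the 6 were above 0 and 3 below, and limma called 0. Spp1 was the 1 higher without overlap, beside 2.91% of all genes, at 23.8 to 34.8 in control and 39.8 to 57.6 in osimertinib. Acta2 had means of 50.4 ± 15.8 in control and 35.6 ± 4.25 in osimertinib, with overlap. The 6 smooth muscle markers summed to 88.9 to 165, 77.1 to 140.0 and 55.5 to 118, lowest in osimertinib 3. The 5 pericyte markers summed to 181 to 257, 179.9 to 212 and 165 to 239. Of 8 chondrocyte markers, 2 had rows and none was tested, with sums of 0.396 to 1.32, so the markers of cartilage, a source of Col11a2 and Col27a1, were near 0. The part of these cell types in the collagen values was not tested.

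Some markers of other cell types also differed between the groups without overlap. All 5 alveolar type 2 markers were higher without overlap in osimertinib against control, beside 2.91% of all genes, with a median log2 difference of 0.46, and limma called 0 of them. The 3 club cell markers, genes of the secretory airway cells that naphthalene is known to injure, summed to 11334 to 14069 normalised CPM in control, 4652 to 9038 in naphthalene and 2264 to 8621 in osimertinib. All 3 were lower without overlap in osimertinib against control, beside 3.43% of all genes, with a median of -1.11 and 0 called by limma. The 6 cardiac muscle markers summed to 29.1 to 56.5, 13.3 to 49.4 and 23.5 to 68.2. In osimertinib against naphthalene 6 of 6 were above 0, beside 60.5% of all genes, with a median of 0.59, and all 6 overlapped between the groups. The 6 endothelial markers, from cells that make type IV collagen, summed to 1493 to 1597, 1258 to 1455 and 1171 to 1546, with 3 of 6 lower without overlap in naphthalene against control, beside 11.2% of all genes. The 5 alveolar type 1 markers summed to 1368 to 1488, 1218 to 1625 and 1099 to 1599, the 4 mesothelial markers to 56.9 to 99.2, 81.5 to 113 and 54.6 to 119, and the 4 adipocyte markers to 7.44 to 64.8, 5.05 to 53.4 and 6.26 to 11.4, all overlapping between groups. The part of these lists in the collagen values was not tested either.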

How the data were processed

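Libraries were made from total RNA of lung with rRNA depletion and a strand-keeping kit, per the labels' protocols. GRCm39, Bowtie2, edgeR, RSEM 1.3.0 and Trimmomatic 0.38 are listed in the submitters' processing notes, without roles. The deposited signal values are reads per library size after edgeR-type scaling, called normalised CPM here. Dividing each value by what 1 read is worth in that library gave whole reads within 0.01 for 100% of values, and the factors implied by the deposited values equalled edgeR's TMM factors from the recovered reads, with a largest difference of 2.22e-16. Names came from GENCODE M21, an annotation of an earlier build (GRCm38), which named 23123 IDs and left 132 unnamed. Exon lengths came from the same annotation and promoters from RefSeq (GRCm38.p6).

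The test was limma 3.58.1 in R 4.3.3 on log2(value + 1), with a trend of variance on mean and all 3 groups fitted together, which leaves 8 residual degrees of freedom. It covered the 16225 genes with a mean of at least 1, with Benjamini-Hochberg adjustment over all of them and a threshold of 0.05. This scale understates the change of low genes. Whole reads went into edgeR 4.0.16 and DESeq2 1.42.0. Other settings were pseudocounts of 0.1 and 5, filters, rescalings, 2 groups only, array weights, a replicate block and libraries left out. The settings on recovered reads, on the unnamed gene and on osimertinib 2 and 3 together, and the removal of libraries from shares, were added after seeing the data. The members, classes, gene lists and rules were chosen with earlier results of these data known. Every tested fibrillar, basement membrane and type VI gene is named with its libraries, others where groups did not overlap. Biosynthesis genes are named where osimertinib and naphthalene did not overlap or as 6 anchors, and Adamts14 for its values against control.

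Same-numbered naphthalene and osimertinib libraries had correlated deviations from their group means (0.122, 0.159 and 0.523 across genes), all over 0.1, so the numbers were taken to pair them. Several pairs with different numbers correlated as strongly (osimertinib 4 with naphthalene 1, 0.229, and with naphthalene 2, 0.270; osimertinib 2 with naphthalene 1, 0.193), so this pairing is weakly founded, and the labels are silent on what a number shares. Numbers did not pair the libraries in the other 2 comparisons (-0.0640, 0.203 and -0.0928 for naphthalene against control, -0.0385, 0.0746 and -0.152 for osimertinib against control).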

Additional observations from a re-analysis of the deposited data

Results flagged for a closer look

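In groups of 5 libraries, a value was picked out when its gap to the nearest other library was over 0.71 of the group's range. This was checked for 55 sets of values, of which 8 were picked out, and chance picks about 1 in 20. Col3a1 in osimertinib 5 was 627 normalised CPM, above 445 to 495 in the other 4. Col10a1, a network-forming collagen of growth cartilage, was 4.52 in osimertinib 4, above 1.78 to 2.52.

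The other 6 were all osimertinib 3, the library that was lowest of its group for 25 of 31 collagens. Its Col3a1/Col1a1 ratio was 4.22, against 1.66 to 2.12 in the other 4 libraries. Its Col5a2/Col4a1 ratio was 0.171, against 0.129 to 0.133. Its Col4a1/Col4a2 ratio was 1.77, against 1.36 to 1.45, and its Col4a3/Col4a1 ratio was 0.442, against 0.503 to 0.524. Col3a1 made up 18.5% of its collagen expression, against 13.9 to 14.8%, and Col5a2 3.14%, against 2.12 to 2.40%. These 6 values share 1 library and 4 of them share Col3a1 or Col5a2, so they are not 6 separate observations.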

How the results depend on the processing

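Giving every library the same total, the unnamed gene included, shifted the median of all genes. It became -1.46 in naphthalene against control, 1.11 in osimertinib against naphthalene and -0.34 in osimertinib against control. Collagen medians were -1.56, 1.25 and -0.23, with 29, 27 and 0 collagens and 15509, 14282 and 88 genes called. The sign changed for 10, 9 and 14 of the 31 collagens in these comparisons. The genes listed next changed sign and were also called. Against control, naphthalene was then reversed for Col3a1 (-1.31), Col4a3 (-1.19), Col4a4 (-1.40), Col6a1 (-1.44), Col4a5 (-1.47), Col5a2 (-1.45), Col16a1 (-1.39) and Col20a1 (-0.94). Osimertinib against naphthalene was reversed for Col4a3 (1.02), Col4a4 (1.16), Col6a2 (1.14), Col12a1 (1.08), Col23a1 (1.04) and Col17a1 (0.89). In osimertinib against control none of the changed signs was called, and 5 collagens were above 0, against 19 before this rescaling. With the same total outside the unnamed gene, collagen medians were -0.48, 0.38 and -0.07, beside -0.48, 0.29 and -0.20 for all genes, with 0, 7 and 0 genes called.

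For naphthalene against control, genes called over all genes numbered 21 with 2 groups only, 5 with array weights, 11 with DESeq2, 2 with the read share as a term, and 38 without osimertinib 2 and 3. For osimertinib against naphthalene they numbered 1 with quantile normalisation, 1 with 2 groups only, 4 with array weights, 21 with DESeq2, 2 with the read share as a term, and 47 without osimertinib 2 and 3. In that comparison DESeq2 called 1 collagen, and leaving out osimertinib 2 and 3 called 1 (Col3a1) at a collagen median of 0.35. For osimertinib against control, genes called numbered 149 with array weights, 75 with DESeq2, 2 with the read share as a term, 2 without osimertinib 2 and 3, and 0 with the replicate block. Collagens called were 4 with array weights (Col3a1, Col5a2, Col14a1 and Col4a5) and 2 with DESeq2. The cause of these changes was not tested.

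With the replicate block, collagens called were 0 in all 3 comparisons, at medians of -0.05, 0.05 and 0.04, beside -0.06, 0.06 and -0.01 for all genes. Col3a1 had adjusted p = 0.330 against naphthalene and 0.237 against control. Osimertinib 4 and 5 have no partner and do not inform the blocked differences. Limma without the block had also called 0 collagens, so the block had no call to remove.

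Leaving out single libraries gave 0 collagens called in naphthalene against control and 0 in osimertinib against naphthalene, and 0 to 1 in osimertinib against control, the 1 being Col3a1 without osimertinib 3. Over all genes the counts were 0 to 12, 0 to 11 and 0 to 2, with 12 and 11 reached without osimertinib 2. Collagen medians ran from -0.13 to 0.04, from 0.07 to 0.26 and from 0.03 to 0.20. The fibrillar share in naphthalene minus control, 0.0756 percentage points, was reversed without control 1 (-0.852), naphthalene 1 (-0.127) or naphthalene 2 (-1.52), and was 1.88 without naphthalene 3. Col3a1 and Col5a2 stayed above 0 in both comparisons with osimertinib under every setting tried. Depth limits the lowest members, since 1 read is worth up to 0.459 normalised CPM in the naphthalene libraries.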
